A study of Mus musculus with 4 samples.

Results

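The genes followed here, 9 in all, serve heat production in brown fat: the uncoupling proteins Ucp1, Ucp2 and Ucp3, and Cidea, Elovl3, Gk, Adrb3, Dio2 and Otop1. They were taken by gene symbol from the deposited table of normalised counts, which held all 9 of them among 17259 genes. Brown adipose tissue (BAT) of wild-type (WT) mice was sequenced as isolated mitochondria (BAT-Mito, 2 libraries) and as a tissue sample (BAT-total, 2 libraries). The titles call the second group BAT-total and the methods describe total lysates, but its treatment label reads "tissue minus mitochondria". Genes encoded in mitochondrial DNA took 51.1% and 59.3% of its values, so mitochondrial RNA was present in it. Both groups share the genotype, the tissue and the RNA extraction with DNase. No treatment of the animals is labelled, and their age, sex and number are not given in the sources used here. The methods describe digitonin and RNase A treatment of mitochondria for heart, and do not state it separately for BAT.

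Brown fat burns fatty acids in its mitochondria and releases the energy as heat. UCP1 is the carrier of the inner mitochondrial membrane that lets protons flow back without ATP synthesis, and its gene, like those of the other proteins described here, lies in the nucleus, so its mRNA is made there and translated by cytosolic ribosomes. Noradrenaline, acting on the β3-adrenergic receptor (Adrb3) of brown fat cells, raises cyclic AMP, which releases fatty acids from lipid droplets and increases transcription of Ucp1 and of Dio2, the deiodinase that makes active thyroid hormone within the cell.

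The 3 uncoupling protein genes are related in sequence, and a short read could in principle be placed on the wrong one. The coding stretch of 75 bases (the read length) where Ucp1 comes closest to Ucp2 and Ucp3 together is shown first, because it is the test of whether reads of the abundant Ucp1 could be counted for its relatives. It spans an exon junction and lies, on the + strand of GRCm38, at chr8:83295322-83295349 and chr8:83297857-83297903 (exons 5 and 6 of Ucp1), chr7:100498889-100498916 and chr7:100499236-100499282 (exons 7 and 8 of Ucp2), and chr7:100482728-100482755 and chr7:100484994-100485040 (exons 6 and 7 of Ucp3). Capitals mark the 24 positions at which the 3 genes are not all alike.
Ucp1: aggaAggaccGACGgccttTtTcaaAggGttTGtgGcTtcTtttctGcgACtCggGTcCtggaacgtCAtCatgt
Ucp2: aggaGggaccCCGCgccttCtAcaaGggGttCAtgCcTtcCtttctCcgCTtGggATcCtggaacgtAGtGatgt
Ucp3: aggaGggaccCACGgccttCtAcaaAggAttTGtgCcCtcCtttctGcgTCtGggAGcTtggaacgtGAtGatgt

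In that stretch Ucp2 differed from Ucp1 at 20 bases and Ucp3 at 15. Over every pair of 75-base coding windows, the fewest differences were 16 between Ucp1 and Ucp2 and 15 between Ucp1 and Ucp3. Ucp2 and Ucp3, which are neighbours on chromosome 7, came closer, with 7 differences at best. That window, in exon 4 of Ucp2 (chr7:100497212-100497286) and exon 3 of Ucp3 (chr7:100480191-100480265), is shown with its 7 differences in capitals, as the place where these 2 genes are hardest to tell apart.
Ucp2: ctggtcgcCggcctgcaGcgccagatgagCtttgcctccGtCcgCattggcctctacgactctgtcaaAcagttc
Ucp3: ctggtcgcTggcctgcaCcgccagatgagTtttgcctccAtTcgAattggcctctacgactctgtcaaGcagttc

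Longer alignments to transcripts of other genes were also searched, with at least 75 bases and at least 90% identity over the whole alignment, which the alignment of Ucp2 with Ucp3 did not reach. They were found for 4 of the 9 genes: Gk (28 other genes, 12 of them in the table), Ucp2 (22, 9 in the table), Adrb3 and Dio2 (1 each, in both cases a gene on the opposite strand). None were found for Ucp1, Ucp3, Cidea, Elovl3 and Otop1. For Ucp3 this holds only over the whole alignment. Its closest window of 75 bases with Ucp2, shown above, has 90.7% identity and so reaches both limits by itself, and Ucp3 is not among the 22 genes counted for Ucp2. Reads that fit several places were not counted by the authors. Apart from genes that overlap them on the opposite strand, the matches of Gk and Ucp2 had at most 97.3% identity. Whether Gk and Ucp2 lost reads in this way was not tested, and their values are uncertain for that reason. The strand setting of the counting is not given in the sources used here. Genes on the opposite strand that overlapped exons of the 9 and were in the table had at most 16 normalised counts, in Gm45470, which overlaps Adrb3.

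The deposited values are counts divided by a scaling factor. In the BAT-Mito libraries the values were whole multiples of 8.32 units in replicate 1 and 6.90 in replicate 2, which gave back 26288871 and 24910434 reads. The reads behind the BAT-total values could not be recovered, their depth is unknown, and no counting interval is given for them. Genes encoded in mitochondrial DNA took 95.3% and 95.5% of the BAT-Mito reads, above the shares given for BAT-total. After 17 nuclear genes whose transcripts match mitochondrial ones were set aside, the other 17205 nuclear genes (called other nuclear genes from here on) held 59288 and 67370 reads in BAT-Mito. All values of the 9 genes in BAT-Mito therefore rest on 0.226% and 0.270% of those reads, and a gene with no read may still have had up to 3, which is 25 normalised counts in replicate 1 and 20.7 in replicate 2. Intervals and this floor cover counting error only.

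Ucp1 was among the most abundant nuclear transcripts of BAT-total. Its normalised count was 4819 in replicate 1 and 4185 in replicate 2 (mean 4502 ± 448, SD, n = 2), the 7th highest value among the other nuclear genes in both libraries. The genes above it were the same 6 in both: Malat1, a nuclear long non-coding RNA, the ribosomal RNA gene n-R5-8s1, Fasn and Scd1, enzymes that make fatty acids, Fabp4, a fatty acid carrier, and Gpd1, which makes glycerol 3-phosphate. These 6 were named after their values were seen. Divided by the length of the exons (1636 bases for Ucp1), the level was 2752 ± 274 normalised counts per kb. On this scale Ucp1 ranked 1st of 12959 protein-coding nuclear genes in both BAT-total libraries, while its rank among all other nuclear genes, which include short non-coding RNAs with very few exon bases, was 46 and 48.

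The level of Ucp1 in isolated mitochondria differed between the replicates. The value was 1290 in BAT-Mito replicate 1 (155 reads) and 3554 in replicate 2 (515 reads), both below the 2 BAT-total values. Replicate 1 thus had 28.7% of the mean BAT-total level (95% exact Poisson interval 24.3 to 33.5%) and replicate 2 had 78.9% (72.3 to 86.1%). Ucp1 ranked 29th among the other nuclear genes in replicate 1 and 4th in replicate 2. Above it in replicate 2 were Gm20594, Fasn and Gpd1, and the genes above it in replicate 1 included the liver transcripts Alb, Apob and Trf and the muscle transcripts Ttn and Myh4, all named after their values were seen. As a share of the other nuclear genes it held 26.1 of every 10000 reads in replicate 1 (Wilson 95% interval 22.3 to 30.6) and 76.4 in replicate 2 (70.1 to 83.3), against 65.3 and 57.7 of every 10000 in BAT-total. On this scale replicate 2 lay above both BAT-total libraries and replicate 1 below both.

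The difference between BAT-Mito and BAT-total was tested with limma on log2(normalised count + 1) over the 8215 genes with a mean of at least 10, with Benjamini-Hochberg adjustment over those genes. For Ucp1 the log2 fold change was -1.07 (SE 0.70), adjusted p = 0.426, so no difference was called. With 2 libraries a side the test has little power, and it does not show that the groups are alike. edgeR's quasi-likelihood test gave an adjusted p of 0.281. All edgeR and DESeq2 fits took the BAT-total values as reads, which is not their true depth. Over these genes the median was -1.23, and Ucp1 had a higher log2 fold change than 54.4% of them. Nothing in the labels says that the libraries came from separate animals, so these p-values measure only the spread between these samples. For a single gene an exact permutation test of 2 against 2 libraries cannot go below p = 0.333. BAT-Mito is a preparation of mitochondria, so a lower value there is no measure of cell number or of RNA per cell. In bulk samples the part of each cell type in a value cannot be told apart.

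**Figure D1:**
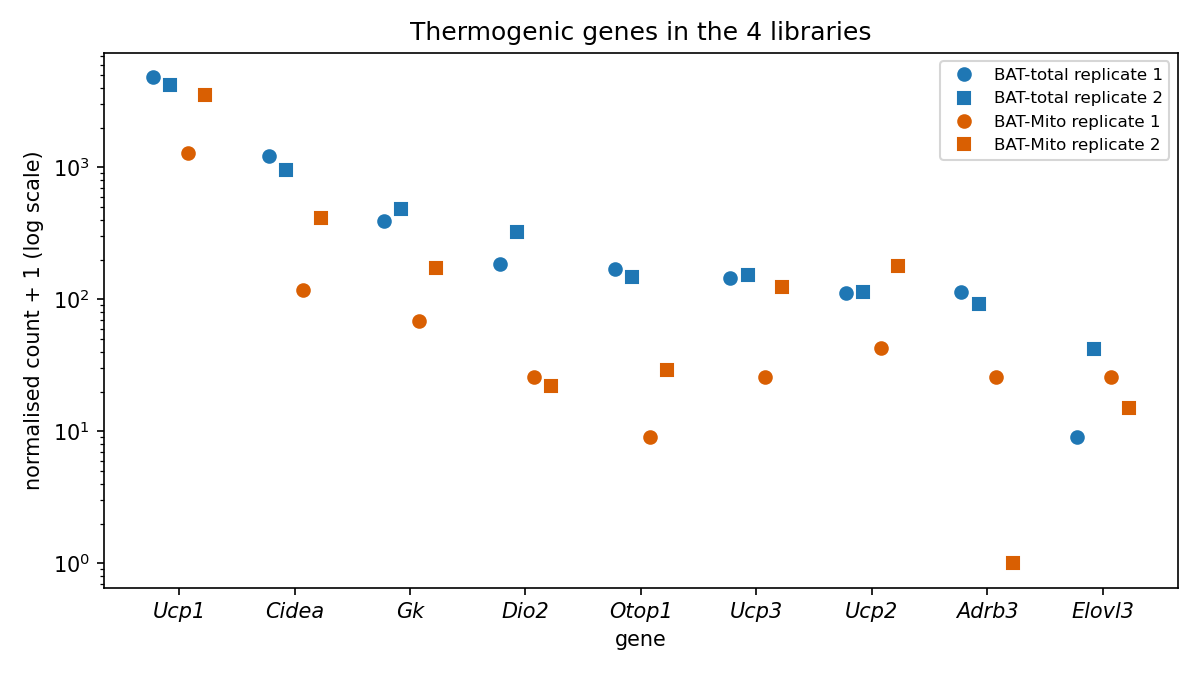
Normalised count + 1 (log axis) of the 9 genes in each of the 4 libraries, ordered by the BAT-total mean, with 1 point per library (blue BAT-total, orange BAT-Mito, circles replicate 1, squares replicate 2). Ucp1 is the highest gene in all 4 libraries, and the orange points of Ucp1, Ucp3, Cidea, Gk, Adrb3, Dio2 and Otop1 lie below the blue ones.

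The other uncoupling proteins were far less abundant. Ucp3, the form best known from skeletal muscle and also present in brown fat, had 144 and 153 normalised counts in BAT-total (47.4 ± 2.03 per kb, n = 2) and 25 and 124 in BAT-Mito, from 3 and 18 reads. Both BAT-Mito values lay below both BAT-total values. The log2 fold change was -1.39 (SE 0.96), limma adjusted p = 0.442. Ucp2, a carrier found in many tissues and in immune cells, had 110 and 113 in BAT-total (16.0 ± 0.30 per kb) and 42 and 179 in BAT-Mito, from 5 and 26 reads. Here the groups overlapped, because BAT-Mito replicate 2 was at 160.5% of the BAT-total mean (105 to 236%) and replicate 1 at 37.7% (12.1 to 87.1%). The log2 fold change was -0.35 (SE 0.89), limma adjusted p = 0.803, and its sign turned under 3 of the 5 other scalings, with edgeR and DESeq2, and without BAT-Mito replicate 1.

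Among the 9, Cidea was the most abundant of the genes of lipid droplets and lipid synthesis. It codes for a lipid droplet protein that promotes droplet growth and marks brown fat. BAT-total had 1223 and 960 normalised counts, 47th and 61st among the other nuclear genes, and 979 ± 167 per kb, second to Ucp1 among the 9. BAT-Mito had 117 and 414 (14 and 60 reads), below both BAT-total values, which is 10.7% (5.84 to 17.9%) and 37.9% (29.0 to 48.8%) of the BAT-total mean. The log2 fold change was -2.29 (SE 0.82), limma adjusted p = 0.285. The ratio of Ucp1 to Cidea, which does not depend on the scaling of a library, was 11.0 and 8.58 in BAT-Mito and 3.94 and 4.36 in BAT-total, without overlap between the groups.

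Gk codes for glycerol kinase, which lets brown fat reuse the glycerol set free by lipolysis. It had 394 and 479 normalised counts in BAT-total and 67 and 173 in BAT-Mito (8 and 25 reads). Its BAT-Mito values were 15.4% and 39.6% of the BAT-total mean, and both lay below the BAT-total values. The log2 fold change was -2.0 (SE 0.67), limma adjusted p = 0.276. Elovl3, which elongates fatty acids and is strongly raised by cold, was the lowest of the 9 in BAT-total, with 8 and 41 normalised counts. These 2 values lay far apart, and the BAT-Mito values of 25 and 14 (3 and 2 reads) lay between them. No difference was detectable at this depth (log2 fold change 0.02, SE 0.99, limma adjusted p = 0.988).

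The receptor and the hormone-activating enzyme were scarce in isolated mitochondria, as were Elovl3 and Otop1. Adrb3, the receptor through which noradrenaline acts on brown fat cells, had 112 and 92 normalised counts in BAT-total, and 25 (3 reads) and 0 in BAT-Mito. Replicate 1 was at 24.5% of the BAT-total mean (5.05 to 71.5%). With no read in replicate 2, the floor of 3 reads allows a level of up to 20.3% of the BAT-total mean there. Its log2 fold change of -4.33 (SE 1.85) depends on the pseudocount at 0 reads and missed the threshold (limma adjusted p = 0.316; edgeR 0.0540). Dio2 had 183 and 324 in BAT-total and 25 and 21 in BAT-Mito, 3 reads in each. The BAT-Mito values were 9.86% (2.03 to 28.8%) and 8.28% (1.68 to 23.9%) of the BAT-total mean. The log2 fold change of Dio2 was -3.35 (SE 0.52), with an adjusted p of 0.0899 in limma, 0.0251 in edgeR and 0.00545 in DESeq2. The last 2 values depend on BAT-total values taken as reads.

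Otop1 codes for a proton channel, and ranked 711th and 836th among the other nuclear genes in BAT-total. It had 169 and 147 normalised counts in BAT-total and 8 and 28 in BAT-Mito (1 and 4 reads), or 5.06% (0.133 to 29.3%) and 17.7% (4.76 to 44.7%) of the BAT-total mean. The log2 fold change was -3.30 (SE 0.77), with an adjusted p of 0.194 in limma, 0.0326 in edgeR and 0.0202 in DESeq2. The ratio of Ucp1 to Otop1 was 28.5 in both BAT-total libraries, and 161 and 127 in BAT-Mito, where it rests on 1 and 4 Otop1 reads.

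Per kb of exon, the order of the 9 genes in BAT-total was Ucp1, Cidea, Gk (56.4 ± 7.76), Ucp3, Otop1 (45.9 ± 4.52), Dio2 (43.6 ± 17.1), Adrb3 (30.2 ± 4.19), Ucp2 and Elovl3 (12.4 ± 11.8). Neighbours whose 2 values overlapped were Ucp3 and Otop1, Otop1 and Dio2, Dio2 and Adrb3, and Ucp2 and Elovl3. The exon lengths join all annotated transcripts, which lowers the per-kb level of Gk (7743 bases) and Ucp2 (6989 bases).

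The ratio of Ucp1 to the gene was higher in both BAT-Mito libraries than in either BAT-total library for Cidea, Gk (19.3 and 20.5 against 12.2 and 8.74), Dio2 (51.6 and 169 against 26.3 and 12.9) and Otop1. For Ucp2 it was lower, at 30.7 and 19.9 against 43.8 and 37.0. The groups overlapped for Ucp3 (51.6 and 28.7 against 33.5 and 27.4) and Elovl3. For Adrb3 the ratio was 51.6 in BAT-Mito replicate 1 and 43.0 and 45.5 in BAT-total, and replicate 2, with 0 reads, has no ratio. Over the other 8214 genes tested, counting a gene with no read in a BAT-Mito library as higher there, the ratio was higher in both BAT-Mito libraries for 21.6% and lower in both for 20.9%. By that rule Adrb3 counts as higher too. The BAT-Mito ratios of Dio2, Elovl3 and Otop1 rest on 1 to 4 reads in each library.

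Over the 9 genes, all of which passed the filter on low values, limma called 0 higher and 0 lower in BAT-Mito at an adjusted p under 0.05, and 3 (Gk, Dio2 and Otop1) had an unadjusted p under 0.05. Over all 8215 genes tested, limma called 0.803% higher and 4.41% lower, and an unadjusted p under 0.05 was reached by 14.9% with a lower and 3.2% with a higher value. Of the 362 genes that limma called lower, 359 had no read in either BAT-Mito library, whereas each of the 9 had at least 1 read. edgeR and DESeq2 each called the same 2 lower, Dio2 and Otop1, beside 2.5% and 2.58% of all genes tested, and called 0 of the 9 higher, beside 2.17% and 2.3% of all. In 7 of the 9 both BAT-Mito values lay below both BAT-total values, a pattern that 52.1% of all genes tested shared, and in 0 both lay above, as in 8.59% of all genes tested. The fold change was below 0 for 8 of the 9 and for 81.2% of all genes. The median log2 fold change of the 9 was -2.0, beside -1.23 over all genes tested and -1.25 over the 1381 other nuclear genes with a BAT-total mean of at least 100. Without BAT-Mito replicate 1 the median of the 9 was -1.32 and that of all genes -0.92, and without replicate 2 they were -2.52 and -1.05. These counts describe the genes against the background and were not tested against it.

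**Figure D2:**
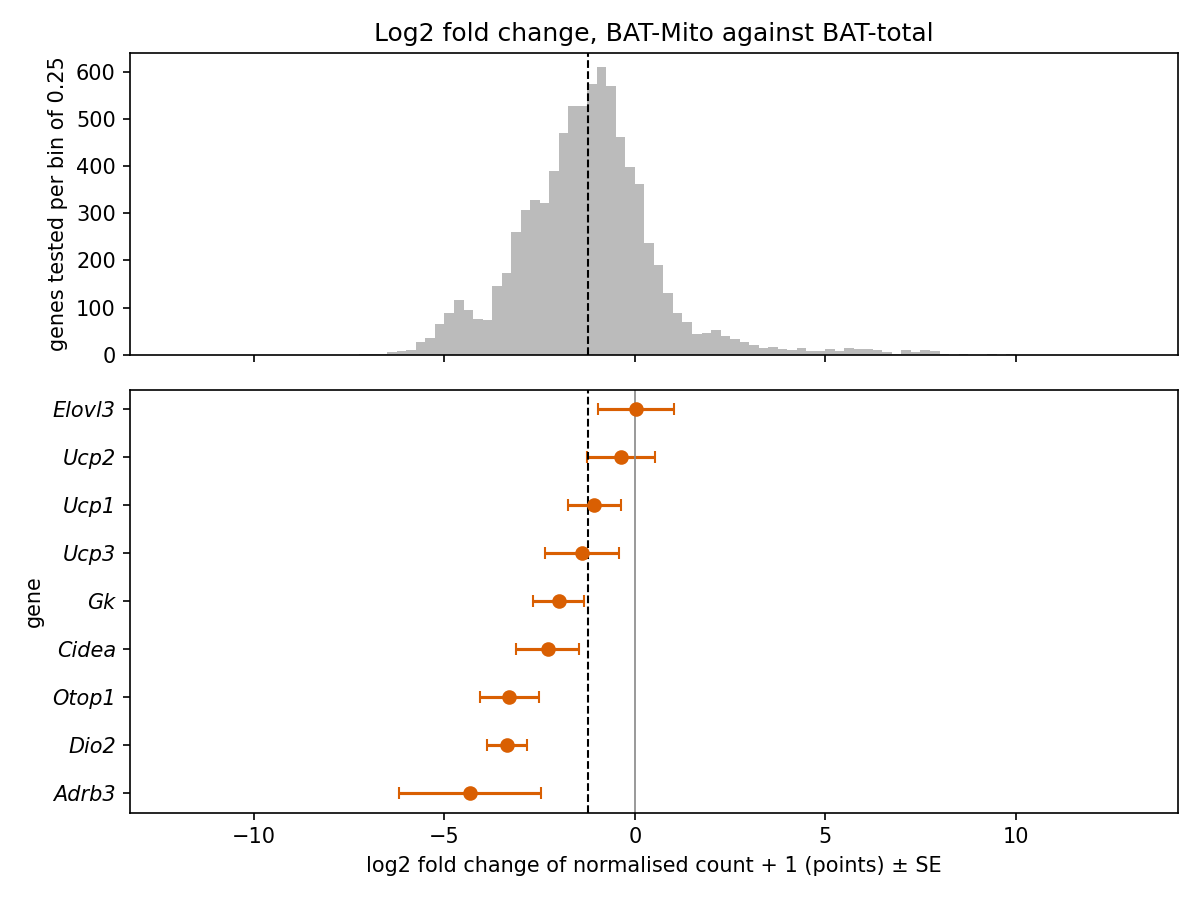
Upper panel: number of genes per bin of 0.25 in log2 fold change (BAT-Mito against BAT-total) for the 8215 genes tested. Lower panel: the log2 fold change of each of the 9 genes with its SE (n = 2 libraries per group), with the median of all genes (-1.23) as the dashed line and 0 as the grey line. Ucp1 (-1.07) and Ucp3 (-1.39) lie next to the median, and Dio2, Otop1 and Adrb3 lie lowest.

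The 9 genes were also compared between the 2 BAT-Mito replicates. Of the 9, 6 held a larger share of the other nuclear reads in replicate 2 than in replicate 1, and 3 (Dio2, Elovl3 and Adrb3) did not. Those 3 had at most 3 reads in either replicate, and their ratios were not tested against that of Ucp1. For 4 of them, Ucp1, Ucp2, Ucp3 and Cidea, the intervals of the 2 shares did not overlap, with the larger share in replicate 2, as in 18% of the 1381 other nuclear genes with a BAT-total mean of at least 100. The share of Ucp1 was 2.92 times as large in replicate 2, that of Cidea 3.77 times, that of Ucp2 4.58 times and that of Ucp3 5.28 times. Over the 1381 abundant other nuclear genes the median ratio was 1.32, and 62.7% had a larger share in replicate 2. The median gene of that set was at 35.9% of its BAT-total level in replicate 1 and 50.5% in replicate 2. Ucp1 was therefore below the median gene in replicate 1 (37.5% of these genes were seen less) and above it in replicate 2 (74.5% were seen less).

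**Figure D3:**
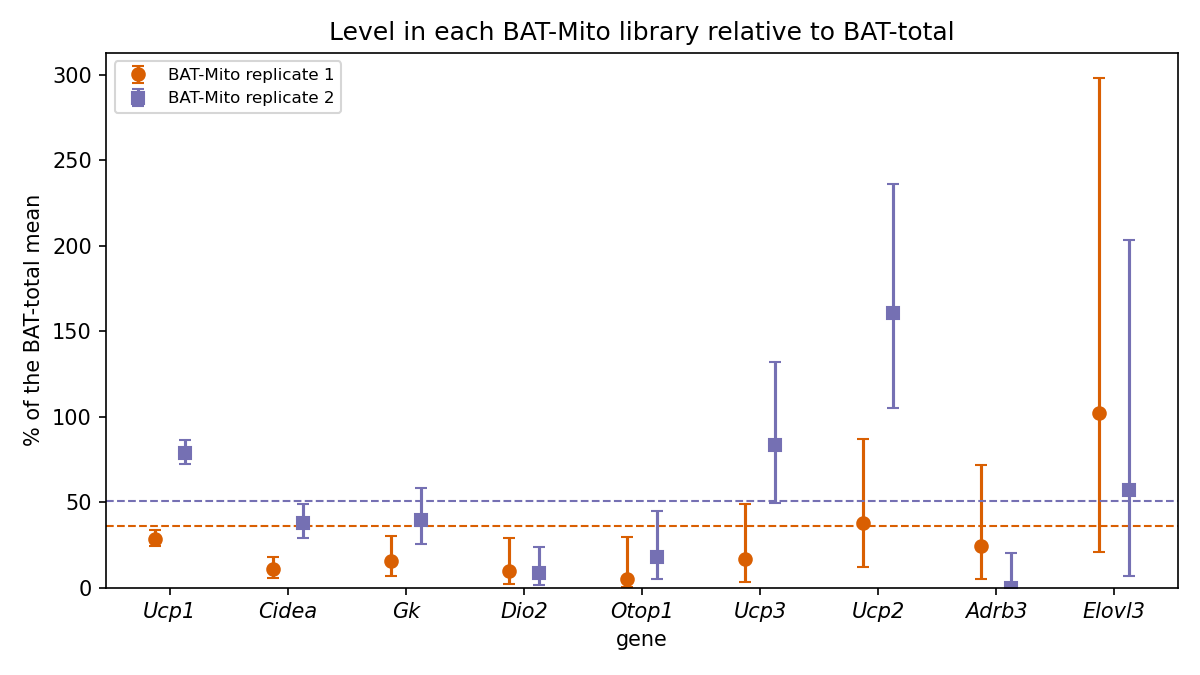
Normalised count of each of the 9 genes in each BAT-Mito library as a percentage of its BAT-total mean, with 95% exact Poisson intervals on the BAT-Mito reads (counting error only; the bar of Adrb3 at 0 reads ends at the floor of 3 reads). Dashed lines mark the median of 1381 abundant nuclear genes in each library, 35.9% in replicate 1 (orange) and 50.5% in replicate 2 (purple). Ucp1 lies below its line in replicate 1 and above it in replicate 2, and Cidea, Gk, Dio2, Otop1 and Adrb3 lie below the line in both.

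Markers of other tissues and cell types were summed in the same libraries. The summed share of 8 liver marker genes, among them Alb and Apoa1, was 295 of every 10000 other nuclear reads in BAT-Mito replicate 1 (1750 reads) and 26.7 in replicate 2 (180 reads), against 4.19 and 1.30 in BAT-total. The 10 skeletal muscle markers held 72.5 and 24.5 in BAT-Mito against 4.16 and 8.95 in BAT-total, and the 9 macrophage markers 6.75 and 6.53 against 1.34 and 1.41. All 8 liver, all 10 muscle and all 7 tested macrophage markers had fold changes above 0. limma called 0 of these higher, with 4, 3 and 2 at an unadjusted p under 0.05, while edgeR called 5, 2 and 0 and DESeq2 7, 2 and 0 higher (over all genes tested, 0.803% with limma, 3.2% unadjusted, 2.17% with edgeR and 2.3% with DESeq2). The 5 endothelial markers held 2.02 and 0.148 in BAT-Mito, where 4 of them had no read in replicate 2, against 11.9 and 12.6 in BAT-total. Of these 5, limma called 1 lower, edgeR 4 and DESeq2 3 (over all genes tested, 4.41%, 2.5% and 2.58%). The limma call was Egfl7, which had 0 reads in both BAT-Mito libraries. The 4 white adipocyte markers held 2.02 and 0.445 against 0.664 and 0.910. The 9 brown adipocyte markers, which include Ucp1 and Cidea, held 59.0 and 177 in BAT-Mito and 189 and 168 in BAT-total, and all 9 were detected in every library. The part of the liver, muscle and macrophage transcripts in the values of the 9 genes was not tested. With BAT-Mito replicate 1 left out, the log2 fold change of Ucp1 was -0.34 (limma adjusted p = 0.236), and with replicate 2 left out it was -1.80 (adjusted p = 0.0248). In these fits the lone BAT-Mito library was assumed to vary like the BAT-total libraries.

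The genes around the 9 in the same pathways were counted in 5 lists, of which 74 of 86 genes were in the table and 64 passed the filter. limma called 1 of the 64 lower and 0 higher, with 18 lower and 0 higher at an unadjusted p under 0.05. edgeR called 9 lower and DESeq2 13, and neither called any higher. Over all genes tested the shares called lower were 4.41% with limma, 14.9% unadjusted, 2.5% with edgeR and 2.58% with DESeq2. Their median log2 fold change was -1.60, beside -1.23 over all genes tested.

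In the adrenergic signal to Ucp1 (18 tested), the 1 gene called lower by limma was Map2k3, a kinase upstream of p38, with 0 reads in both BAT-Mito libraries and 36 and 25 normalised counts in BAT-total (adjusted p = 0.0249; edgeR 0.0964). The BAT-total values of Map2k3 lie near the floor of 3 reads, so no fold is given. It passed the filter through BAT-total alone, and 0 in both BAT-Mito libraries leaves no spread there, which favours a call. With a pseudocount of 10 the limma adjusted p was 0.0916, so the call is not read as a result. The 2 most abundant genes of this list were Gnas, which codes for the stimulatory G protein subunit, and Prkar2b, a regulatory subunit of protein kinase A. Gnas had 2485 and 2182 normalised counts in BAT-total and 541 and 1449 in BAT-Mito, and Prkar2b had 1259 and 931 against 208 and 883. For both, replicate 2 lay closer to BAT-total than replicate 1, and neither passed the test (limma adjusted p = 0.343 and 0.439). Of this list 6 were lower at an unadjusted p under 0.05, and edgeR and DESeq2 each called 3 lower. The 3 edgeR calls, named after their values were seen, were Adcy6, Akap1 and Pde3b (adjusted p = 0.0410, 0.0244 and 0.0443), and did not include Map2k3.

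In fatty acid supply and lipolysis (18 tested), limma called 0, with 7 lower at an unadjusted p under 0.05, edgeR called 3 lower and DESeq2 6, and the median log2 fold change was -1.70. Fabp4 had 5208 and 4746 normalised counts in BAT-total and 957 and 2823 in BAT-Mito (limma adjusted p = 0.325). Lpl, the lipase that frees fatty acids from blood lipoproteins, had 3804 and 3176 against 816 and 1263. Its adjusted p was 0.228 in limma, 0.0575 in edgeR and 0.0233 in DESeq2. The summed share of this list was below BAT-total in both BAT-Mito libraries, 95.8 and 182 of every 10000 against 280 and 250.

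In glycerol and glycerol phosphate handling (6 tested), limma called 0, with 3 lower at an unadjusted p under 0.05, and edgeR and DESeq2 called 2 lower. Gpd1 had 4866 and 4698 normalised counts in BAT-total and 1273 and 3872 in BAT-Mito, and Gpd2, the mitochondrial enzyme that works with it in the glycerol phosphate shuttle, had 1053 and 1223 against 158 and 462. Their limma adjusted p-values were 0.433 and 0.282. Among other genes used as marks of brown fat (17 tested), limma called 0, with 1 lower at an unadjusted p under 0.05, and edgeR and DESeq2 called 1. Pdk4, a kinase that restrains pyruvate oxidation, had 1595 and 1421 against 416 and 1104, and Acaa2, a thiolase of fatty acid oxidation, had 1522 and 1326 against 524 and 1139 (limma adjusted p = 0.395 and 0.437).

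Of the 20 close relatives of the 9 genes, 12 were in the table and 5 passed the filter. limma called 0 of the 5, with 1 lower at an unadjusted p under 0.05, edgeR called 0 and DESeq2 called 1 lower. Cidec, a lipid droplet protein related to Cidea, had 733 and 463 normalised counts in BAT-total and 258 and 600 in BAT-Mito, so its groups overlapped where those of Cidea did not. Elovl6, which elongates palmitate, had 386 and 494 in BAT-total and 92 and 124 in BAT-Mito (log2 fold change -2.02, SE 0.46, limma adjusted p = 0.187; DESeq2 0.0171).

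**Figure D4:**
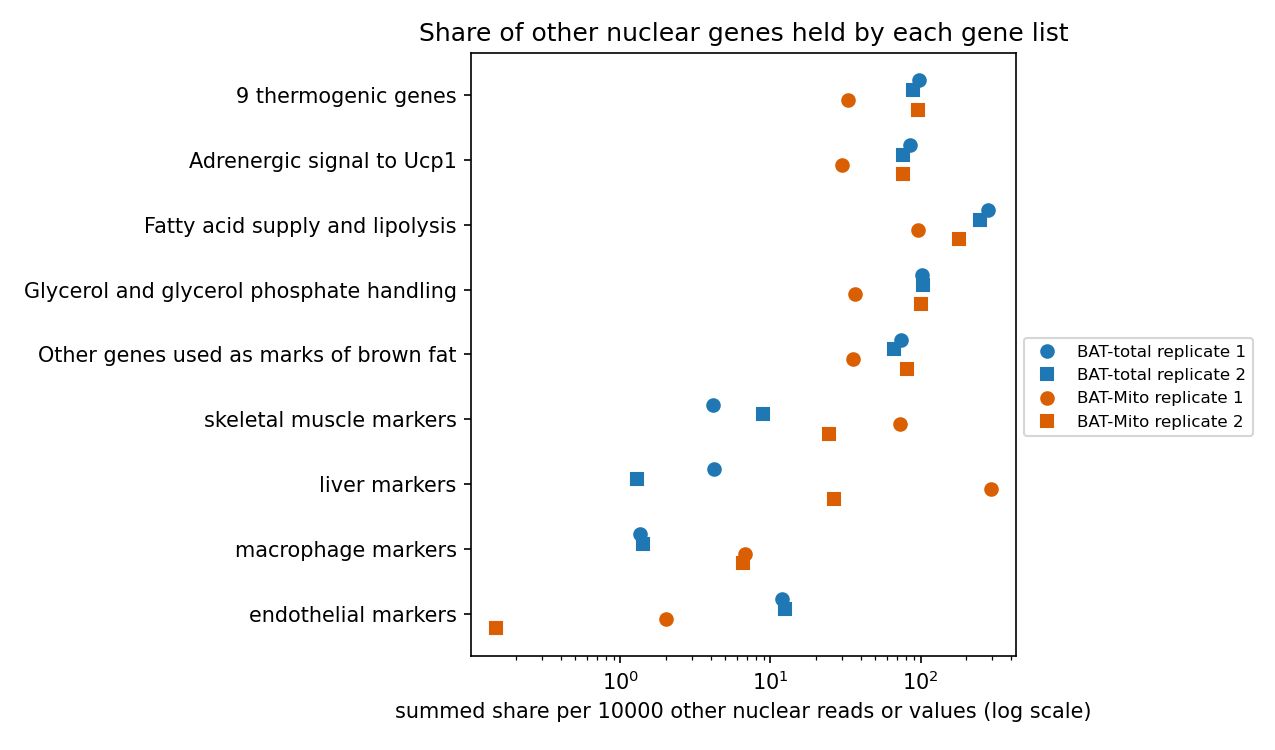
Summed share of each gene list per 10000 reads (BAT-Mito) or values (BAT-total) of other nuclear genes, on a log axis, with 1 point per library. The 9 thermogenic genes held 32.9 in BAT-Mito replicate 1 and 96.9 in replicate 2, against 97.1 and 89.5 in BAT-total, while liver markers held 295 and 26.7 against 4.19 and 1.30.

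Nuclear genes whose values lay nearest to those of Ucp1, by Euclidean distance of log2(normalised count + 1) over the 4 libraries, were Gpd1 (0.209), Fabp4 (0.584), Pck1 (0.673) and Gm23935 (1.18). This distance uses level and pattern together, so the likeness of their values to those of Ucp1 follows from the choice. For Gpd1, the nearest, the ratio of Ucp1 to Gpd1 was 1.01 and 0.918 in BAT-Mito and 0.990 and 0.891 in BAT-total. Pck1, which makes phosphoenolpyruvate for glycerol synthesis, had 4293 and 3605 normalised counts in BAT-total and 1157 and 2353 in BAT-Mito. Gm23935, annotated as a microRNA gene of 57 bases, had 3106 and 3703 against 2006 and 2112.

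Together the 9 genes held 0.971% and 0.895% of the values of other nuclear genes in BAT-total (mean 0.933 ± 0.0531%, SD, n = 2) and 0.329% and 0.969% in BAT-Mito (0.649 ± 0.453%, n = 2). Ucp1 alone held 0.615 ± 0.0537% in BAT-total and 0.513 ± 0.356% in BAT-Mito. The BAT-Mito values spanned the range of BAT-total for Ucp1, and their SD exceeded the difference between the group means for both sums.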

How the data were processed

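Total RNA from 2 BAT-Mito and 2 BAT-total libraries was made into libraries with a low-input SMARTer Pico kit and read as single 75-base reads. Per the labels and the study's methods, the authors trimmed reads with Trimmomatic, aligned them with STAR to mm10, counted unique reads per gene with featureCounts and divided by DESeq2 size factors; the submitters' processing notes list Trimmomatic 0.39, STAR 2.7.10a, featureCounts 2.0.2 and DESeq2 1.30.1. The deposited signal values (normalised counts, 17259 genes) were rounded. BAT-Mito values were whole reads times a constant (100% of values within 0.5 units).

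The 9 genes and the gene lists were chosen with earlier results of these data known. Named genes were the 9, every called list gene (at most 5 per list), the 2 most abundant of each list, and the 5 nearest to Ucp1, of which 1 is not reported here. Tests used limma 3.58.1 on log2(value + 1), genes with a mean of at least 10, Benjamini-Hochberg adjustment. Alternatives used count models (edgeR 4.0.16; DESeq2 1.42.0) of the recovered reads, with BAT-total values taken as reads and the deposited scaling kept, which is not their true depth. They also covered pseudocount, filter, scaling, trend, replicate block and left-out libraries. Nuclear genes matching mitochondrial transcripts (BLAST 2.17.0, at least 90% identity over 50 bases) were left out of shares. Exon lengths and sequences came from GENCODE M21 (GRCm38). The tests across genes and the recovery of reads were tested on simulated data.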

Additional observations from a re-analysis of the deposited data

How the results depend on the processing

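For the 9 genes, 0 were called higher under all 16 alternatives. The number called lower (0 as reported) was 1 without a filter or with limma's trend, 2 with edgeR or DESeq2 on reads, 9 after scaling to all genes or to all nuclear genes (where 7963 and 7167 of all 8215 genes were called lower), and 0 to 8 when 1 library was left out (4 without BAT-Mito replicate 1, 8 without BAT-Mito replicate 2, 0 without either BAT-total library). In the latter fits 3374 and 3864 of all 8215 genes were called lower without BAT-Mito replicates 1 and 2. The median log2 fold change of the 9 was -8.66 scaled to all genes and -5.49 scaled to all nuclear genes, where the median of all genes was -7.15 and -4.41. It kept its sign throughout. The list genes called lower (1 as reported) were 0 with a pseudocount of 10, 15 without a filter, 64 and 63 under the same 2 scalings, 9 with trend, 9 with edgeR, 13 with DESeq2 and 0 to 47 with 1 library left out (32 without BAT-Mito replicate 1, 47 without replicate 2). Their median was -1.0 with TMM, -0.97 with median ratios, -7.96 and -4.95 under the same 2 scalings and -1.01 scaled to nuclear genes without a mitochondrial match, where the median of all genes was -0.65, -0.62, -7.15, -4.41 and -0.66. Over all genes, calls higher and lower numbered 66 and 362 as reported, 178 and 205 with edgeR, 189 and 212 with DESeq2, 53 and 1 with a pseudocount of 10, 143 and 3587 without a filter, and 64 and 11 at a mean of at least 50.

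Ucp2, Elovl3 and Cidec changed sign. Ucp2 was at 0.26 with TMM, 0.29 with median ratios, 0.25 scaled to nuclear genes without a match, 0.025 with edgeR, 0.00029 with DESeq2 and from -1.39 (without BAT-Mito replicate 2) to 0.68 (without BAT-Mito replicate 1) with a library left out. Elovl3 was at -0.064 with a pseudocount of 10, -6.11 and -3.28 scaled to all and to nuclear genes, -0.37 with edgeR, -0.35 with DESeq2, -0.37 without BAT-Mito replicate 1 and from -1.09 (without BAT-total replicate 1) to 1.13 (without BAT-total replicate 2) with a library left out. Cidec was at 0.057 with TMM, 0.088 with median ratios, 0.044 scaled to nuclear genes without a match and from -1.17 (without BAT-Mito replicate 2) to 0.042 (without BAT-Mito replicate 1) with a library left out. The cause was not tested. Elovl3 and Map2k3 gave no value at a mean of at least 50, which they did not reach.

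The share held by Ucp1 in BAT-Mito was 0.0290% of all nuclear genes and 0.00133% of all genes, and in BAT-total 0.261% of all genes. The 9 together held 0.0367% and 0.00168% in BAT-Mito, and 0.879% and 0.396% in BAT-total. The per-kb ranks of Ucp1 in BAT-total were 46 and 48 in place of 7.

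The groups share replicate numbers that nothing in the labels ties together, and the deviations of same-numbered libraries correlated at 0.112 across genes. With a replicate block, 0 of the 9 and 0 of the list genes were called, and 0 of all genes (944 at an unadjusted p under 0.05).

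With 0 to 26 BAT-Mito reads for Otop1, Dio2, Adrb3, Elovl3, Gk, Ucp2 and Ucp3, depth limits what their replicate values can show.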
